A study of Arabidopsis thaliana with 6 samples.

Results

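Expression of 3 genes of glucosinolate synthesis, BCAT4, AT2G31790 and UGT74B1, was followed over all 6 arrays of a study of Arabidopsis thaliana rosettes. The genes were chosen by name, with earlier results of these data known. Each has 1 probe set that the platform annotation assigns to that gene alone, so 3 of 3 were measured. Such a probe set existed for 13350 genes among the 22810 probe sets of the array. Wild-type Col-0 plants were compared with sid2.2, a mutant of ICS1, whose product isochorismate synthase makes a precursor of the defence hormone salicylic acid. All plants of both genotypes were limited in sulfate (0.016 mM) and grown to day 60 in short days, under 8 h of light (160 µmol per square metre and second) and 16 h of darkness, so no sulfate-replete control exists in these data. The experiment was grown 3 times at intervals of several months, and each culture contributed 1 pool of rosettes from more than 6 plants for either genotype, hence 3 arrays per genotype, named below by genotype and culture (replicate) number. Only 1 mutant allele was examined.

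Glucosinolates are sulfur-rich defence compounds of the cabbage family, which myrosinases, a class of thioglucosidases, break down when tissue is damaged. The aliphatic ones are made from methionine: its side chain is lengthened, the product is turned into an aldoxime and then a thiohydroximate, a glucose is attached to the sulfur, and a sulfate group completes the core. BCAT4 encodes the aminotransferase that removes the amino group of methionine and so opens chain elongation. UGT74B1 encodes a glucosyltransferase that attaches glucose to thiohydroximates, and AT2G31790 was taken as the second glucosyl transfer gene. Methionine and the finished compounds both contain sulfur, and all plants here were short of sulfate.

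Signal intensities are linear MAS5 values, a summary of the probes of a set within 1 array. Median intensities lay between 131 and 162 per array. Col-0 replicate 3 and sid2.2 replicate 2 were more alike than either was to the other arrays of its genotype: across the 13647 probe sets tested they correlated at 0.965 with each other, against 0.922 and 0.898 for Col-0 replicate 3 with the other Col-0 arrays, and 0.951 and 0.926 for sid2.2 replicate 2 with the other sid2.2 arrays. Results that rest on these arrays are therefore given with and without them. Col-0 replicate 3 also correlated more with sid2.2 replicates 1 and 3, at 0.959 and 0.931, than with the other Col-0 arrays. By mean correlation with the 5 other arrays, Col-0 replicate 2 was the least like the rest, at 0.913. Next came sid2.2 replicate 2 at 0.915, while Col-0 replicate 3 was at 0.935. The leaf list had 4 of 5 genes measured, with summed signals of 37634 to 69150 in Col-0 and 41149 to 67114 in sid2.2. The root list had 1 of 3, PYK10, whose signal was 44.4 to 170 in the wild type and 32.0 to 232 in the mutant, and none of the 3 flower markers had a named probe set.

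BCAT4, the chain-entry gene, spread over a 27.2-fold range among the 6 arrays, AT2G31790 over 3.32-fold and UGT74B1 over 1.92-fold. In none of the 3 genes did the genotypes separate. The widest differences lay between arrays of 1 genotype or of 1 culture, and the genotype differences of all 3 genes had the opposite sign in culture 2 to that in cultures 1 and 3.

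For BCAT4 the signals were 279, 1498 and 83.4 on Col-0 replicates 1, 2 and 3, and 494, 55.1 and 358 on sid2.2 replicates 1, 2 and 3. The highest and the lowest array thus came from the same culture, and the 3 sid2.2 values all lay inside or below the Col-0 range. Means were 620 ± 766 in Col-0 and 302 ± 225 in sid2.2 (SD, n = 3), with the SD of Col-0 above its mean. In log2 terms sid2.2 differed from Col-0 by -0.61 (SE 1.08; limma adjusted p = 0.913), with a 95% interval of -3.07 to 1.84, or 0.119-fold to 3.58-fold. An interval this wide leaves a several-fold difference in either direction compatible with the data. The 2 lowest signals came from the pair of arrays that were alike across genotypes. There BCAT4 was 2.62 times (Col-0 replicate 3) and 1.98 times (sid2.2 replicate 2) the background level, taken as the 95th percentile of 27 Bacillus control probe sets. On the other 4 arrays it was 8.97 to 52.1 times that level. Without those 2 arrays the log2 difference was -0.62 (SE 0.59; limma adjusted p = 0.685), and without Col-0 replicate 2 it was 0.48 (SE 0.93; limma adjusted p = 0.990).

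AT2G31790 had signals of 500, 864 and 348 on Col-0 replicates 1, 2 and 3, and 608, 261 and 746 on sid2.2 replicates 1, 2 and 3. Its highest array and its 3 lowest were the same as those of BCAT4, in the same order, and the genotypes overlapped. Means were 571 ± 265 in Col-0 and 538 ± 250 in sid2.2 (SD, n = 3). The log2 difference was -0.11 (SE 0.45; limma adjusted p = 0.959; 95% interval -1.14 to 0.91). Without sid2.2 replicate 2 and Col-0 replicate 3 it was 0.036 (SE 0.31; limma adjusted p = 0.973), so that its sign turned.

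UGT74B1 had signals of 694, 1017 and 529 on Col-0 replicates 1, 2 and 3, and 955, 788 and 691 on sid2.2 replicates 1, 2 and 3. Col-0 replicate 2 was again the highest array and Col-0 replicate 3 the lowest, but sid2.2 replicate 2, lowest for the other 2 genes, stood above 3 other arrays here. Means were 747 ± 248 in Col-0 and 811 ± 133 in sid2.2 (SD, n = 3), and the log2 difference was 0.16 (SE 0.28; limma adjusted p = 0.913; 95% interval -0.48 to 0.80). UGT74B1 had the narrowest interval of the 3 genes, equal to 0.717-fold to 1.74-fold. Without sid2.2 replicate 2 and Col-0 replicate 3 the difference was -0.049 (SE 0.29; limma adjusted p = 0.963), again with the sign turned.

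**Figure D1:**
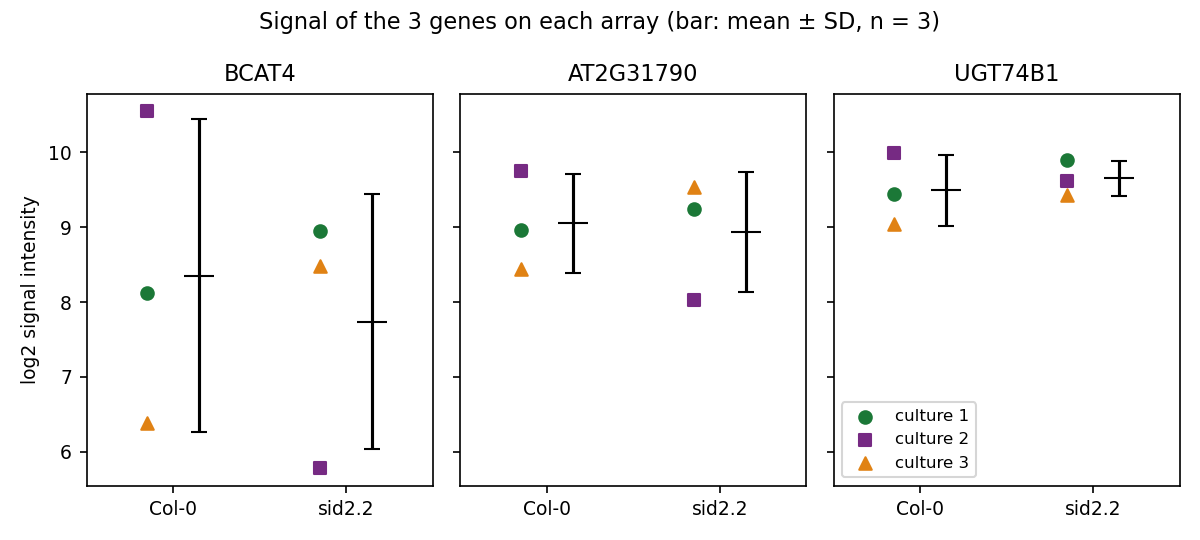
Log2 signal intensity (vertical axis) of BCAT4, AT2G31790 and UGT74B1 on each of the 6 arrays, by genotype, with 1 symbol per culture; the bars give the mean ± SD of the log2 values (n = 3). BCAT4 covers 4.76 log2 units, AT2G31790 1.73 and UGT74B1 0.94, and the genotypes overlap in all 3 panels; heights are not comparable between panels because each probe set has its own response.

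Of the 3 genes, 0 were called between genotypes at a limma adjusted p under 0.05, where 3 of 13647 probe sets, or 0.0220%, were called over the whole table (1010 at an unadjusted p under 0.05). With culture as a replicate block 0 probe sets were called, and without sid2.2 replicate 2 also 0. That background count rose to 302 without Col-0 replicate 3, to 728 without culture 3 and to 235, or 1.72%, without sid2.2 replicate 2 and Col-0 replicate 3, and none of the 3 genes was called in any of these fits. The genotypes overlapped for all 3 genes. They were apart for 12.0% of all probe sets tested, so 0 of 3 does not set these genes off from the rest. In bulk tissue, fewer cells of a type and less RNA per cell cannot be told apart.

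The within-culture differences show the shared change of sign. BCAT4 was higher in sid2.2 by 0.82 (log2) in culture 1 and by 2.10 in culture 3, and lower in culture 2, where the difference was -4.76, or 27.2-fold in size. AT2G31790 followed the same order, with 0.28 in culture 1, -1.73 in culture 2 and 1.10 in culture 3. UGT74B1 had 0.46, -0.37 and 0.38. A culture holds 1 array per genotype, so a single culture's difference has no replicate error of its own. In 0 of the 3 genes were the 3 cultures of 1 sign. This held for 21.5% of all probe sets tested, and 3 genes are too few to differ from that share. Leaving out culture 2 turned BCAT4 to 1.46 (SE 0.56; limma adjusted p = 0.999) and AT2G31790 to 0.69 (SE 0.33; limma adjusted p = 0.999).

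**Figure D2:**
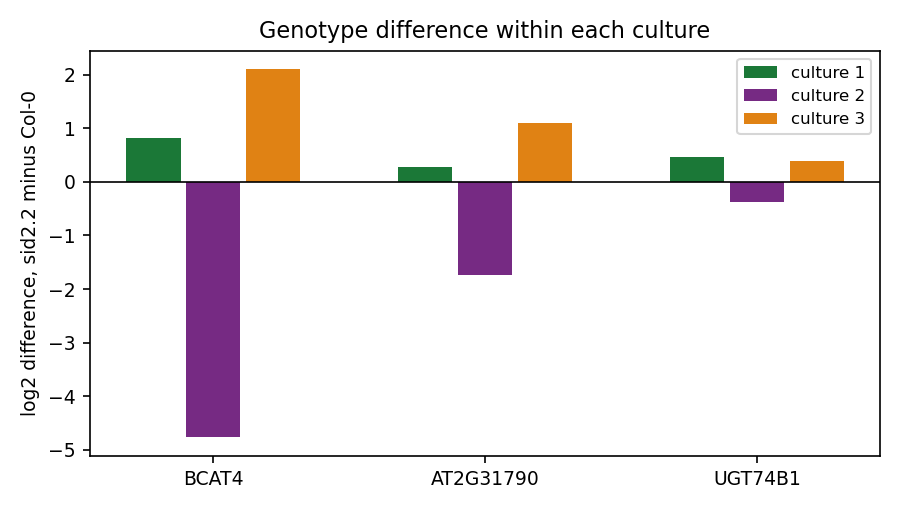
Log2 difference between sid2.2 and Col-0 (vertical axis) within each of the 3 cultures, 1 bar per culture and gene, each from 1 array per genotype. All 3 genes lie above 0 in cultures 1 and 3 and below 0 in culture 2, with -4.76, -1.73 and -0.37 there for BCAT4, AT2G31790 and UGT74B1.

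Averaged over genotypes, no difference between cultures was detected, though the test was hard to pass here. With culture tested beside genotype (limma F test), BCAT4 had an unadjusted p of 0.741, AT2G31790 of 0.945 and UGT74B1 of 0.341 (limma adjusted p = 0.9999 for each). This test was passed by 0 of all probe sets (0%), and 29 had an unadjusted p under 0.05. Over 13647 probe sets that is far fewer than this threshold would give without any culture effect. The result therefore does not show that the cultures were alike. Mean log2 signals of cultures 1, 2 and 3 were 8.54, 8.17 and 7.43 for BCAT4, 9.11, 8.89 and 8.99 for AT2G31790, and 9.67, 9.81 and 9.24 for UGT74B1.

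The spread around the genotype means was widest for BCAT4. The residual SD of BCAT4 was 1.91 on the log2 scale, above that of 99.9% of the 13647 probe sets, whose median was 0.33. Among the 1000 probe sets closest to it in mean signal, 99.8% had a lower residual SD. AT2G31790 had a residual SD of 0.74, above 93.5% of all probe sets and 93.9% of those at its own level. UGT74B1, at 0.37, lay above 58.7% and 62.3%, near the middle of all probe sets. These percentages describe the position of each gene and carry no test.

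Whether the genotype difference of the chain-entry gene differed from that of the glucosyl transfer genes was tested on the log2 ratio of BCAT4 to the mean of AT2G31790 and UGT74B1 within each array, centred on its mean over the 6 arrays. Centred ratios were 0.16, 1.91 and -1.12 on Col-0 replicates 1, 2 and 3, and 0.61, -1.80 and 0.23 on sid2.2 replicates 1, 2 and 3. The genotypes overlapped, and the extremes again both came from culture 2. The ratio differed between genotypes by -0.64 (group SDs 1.53 in Col-0 and 1.30 in sid2.2, n = 3; exact two-sided permutation p = 0.7, adjusted p = 0.7 over 2 ratios; smallest possible p = 0.1). Within cultures 1, 2 and 3 the difference was 0.45, -3.72 and 1.36.

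The same test on the ratio of AT2G31790 to UGT74B1 gave a genotype difference of -0.27 (group SDs 0.19 in Col-0 and 0.85 in sid2.2, n = 3; exact two-sided permutation p = 0.7, adjusted p = 0.7). The centred ratio lay between -0.031 and 0.34 on the Col-0 arrays. On sid2.2 replicates 1, 2 and 3 it was -0.075, -1.02 and 0.68, so the glucosyl transfer genes parted mainly on sid2.2 replicates 2 and 3. With 3 arrays per genotype no p under 0.1 was possible, so neither test could have passed 0.05.

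BCAT4 and AT2G31790 ran in parallel across arrays. Over the 6 arrays their log2 signals had a Pearson r of 0.95 (exact permutation p = 0.00556, adjusted p = 0.0167 over 3 pairs) and a Spearman rho of 0.94 (exact permutation p = 0.0167, adjusted p = 0.05). With each genotype centred on its own mean r was 0.96. AT2G31790 changed by 0.36 log2 units per log2 unit of BCAT4, so a shared order went with very unequal amplitudes. Without the 2 arrays farthest from the BCAT4 median, Col-0 replicate 2 and sid2.2 replicate 2, r was 0.89 over 4 arrays. Without sid2.2 replicate 2 and Col-0 replicate 3 it was 0.78 over 4 arrays, and without Col-0 replicate 2 it was 0.95 over 5 arrays (exact permutation adjusted p = 0.075). All points share the array and its scaling: 0.857% of all probe sets tested had an r with BCAT4 at least as high, and 0.843% an r with AT2G31790 at least as high.

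UGT74B1 followed less closely. Its r with BCAT4 was 0.67 (exact permutation p = 0.135, adjusted p = 0.202) and rho 0.6 (exact permutation p = 0.242, adjusted p = 0.363). Its r with AT2G31790 was 0.50 (exact permutation p = 0.325, adjusted p = 0.325) and rho 0.43 (exact permutation p = 0.419, adjusted p = 0.419). Neither passed, and 17.8% of all probe sets had an r with BCAT4 as high as that of UGT74B1. Without the 2 arrays farthest from the median of the first gene of the pair, r over 4 arrays was 0.91 for BCAT4 and 0.48 for AT2G31790. Without sid2.2 replicate 2 and Col-0 replicate 3, the r of UGT74B1 with BCAT4 was 0.85 over 4 arrays. For AT2G31790 with BCAT4 the same 2 settings gave 0.89 and 0.78, so over 4 arrays the order was reversed. Without Col-0 replicate 2, the highest array for all 3 genes, r over 5 arrays was 0.45 for BCAT4 and 0.25 for AT2G31790 (exact permutation adjusted p = 0.725 for both). Whether the correlation of AT2G31790 with BCAT4 exceeds that of UGT74B1 was not tested.

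**Figure D3:**
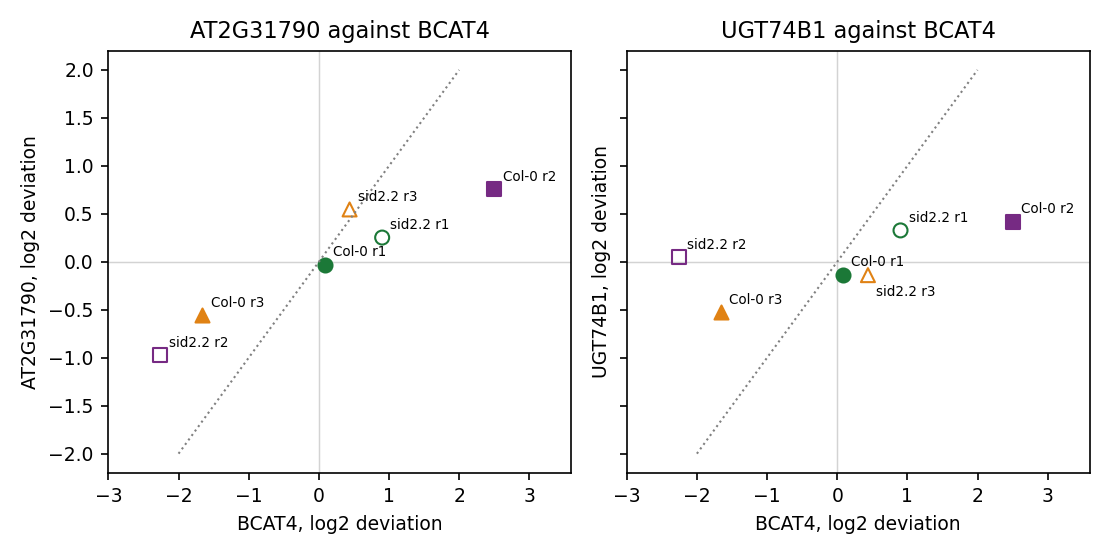
Log2 deviation of AT2G31790 (left) and UGT74B1 (right) from their own 6-array mean, against the deviation of BCAT4 (horizontal axis); each point is 1 array, filled for Col-0 and open for sid2.2, with 1 symbol per culture, and the dotted line marks equal deviations. AT2G31790 keeps nearly the order of BCAT4 (r = 0.95) at a slope of 0.36, while UGT74B1 departs on sid2.2 replicate 2, where BCAT4 is at -2.26 and UGT74B1 at 0.051.

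The ratio between the 3' and the 5' probe set of actin, which measures RNA integrity, was higher on all sid2.2 arrays. It was 4.91, 4.85 and 4.81 on Col-0 replicates 1, 2 and 3, and 5.34, 6.51 and 8.34 on sid2.2 replicates 1, 2 and 3. For GAPDH this ratio was 2.81, 2.74 and 2.33 on the Col-0 arrays, below the 2.93, 3.26 and 3.87 of sid2.2. Both ratios separated the genotypes, so their part in a genotype difference cannot be told apart from that of genotype and was not tested.

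The other lists of the pathway were taken by locus: 102 genes of regulation, synthesis, sulfate supply, methionine metabolism, transport and breakdown. Named probe sets existed for 19 of them and 18 passed the low-signal limit, 15 besides the 3 genes above. Of the 15, 0 were called in either direction, against 0.0220% of all probe sets tested. For 3 of the 15, MYC4, AOP1 and MGL, the genotypes did not overlap, where they were apart for 12.0% of all probe sets tested. Of the 15, 9 were above 0 and 6 below, with a median log2 difference of 0.070, against -0.0051 over all probe sets tested. Without sid2.2 replicate 2 and Col-0 replicate 3, 1 of the 15, MGL, was called, against 235 of all 13647 probe sets, or 1.72%. No gene of the lists for aliphatic and indolic MYB regulators had a named probe set, and BCAT4 was the only one of 10 chain-elongation genes that had one. Of the listed core synthesis genes, only GSTU20 had one besides AT2G31790 and UGT74B1. In the annotation used, 8794 of the 22810 probe sets had no gene name and 503 had several. Whether the missing genes are on the array can therefore not be told here.

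In core synthesis GSTU20, a tau glutathione transferase placed in the aliphatic branch, had signals of 3639, 3232 and 1303 on Col-0 replicates 1, 2 and 3, and 3841, 849 and 3519 on sid2.2 replicates 1, 2 and 3. It was lowest on the same 2 arrays as BCAT4 and AT2G31790, while the other 4 arrays lay within a narrow band from 3232 to 3841. Its r was 0.84 with BCAT4, 0.88 with AT2G31790 and 0.39 with UGT74B1, above 93.1%, 96.2% and 78.1% of probe sets. The genotype difference of GSTU20 was -0.14 (SE 0.60; limma adjusted p = 0.964). Without sid2.2 replicate 2 and Col-0 replicate 3 it was 0.10 (limma adjusted p = 0.875), with the sign turned. For 16.0% of all probe sets tested, the same 2 arrays were the lowest.

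Among the regulators, MYC3 and MYC4, transcription factors that act with the MYB regulators of this pathway, differed by 0.12 (SE 0.30; limma adjusted p = 0.938) and -0.67 (SE 0.25; limma adjusted p = 0.617). MYC4 was lower on all sid2.2 arrays, at 612, 732 and 433 against 830, 981 and 966, without passing the test. Across arrays MYC3 had an r of -0.86 with BCAT4, -0.87 with AT2G31790 and -0.46 with UGT74B1. Of all probe sets tested, 4.99%, 3.25% and 15.8% had a lower r with these genes. AT1G04770, placed in the list of regulators, had an r of -0.83 with BCAT4, -0.72 with AT2G31790 and -0.88 with UGT74B1, and ranged from 2791 to 5651. For it the shares of probe sets with a lower r were 6.51%, 12.4% and 0.645%.

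In side chain modification AOP1, a dioxygenase of the AOP family, lay at 775, 690 and 597 in Col-0 and at 348, 338 and 473 in sid2.2. AOP1 had no overlap of the genotypes, as had 12.0% of all probe sets tested. Its difference of -0.84 (SE 0.23; limma adjusted p = 0.473) did not pass. Its profile did not resemble those of the 3 genes, with an r of 0.35 with BCAT4. AT2G25450, of the same list, differed by 0.33 (SE 0.47; limma adjusted p = 0.887) and was lowest on Col-0 replicate 1, at 623. AOP3 lay between 5.94 and 51.9, under the low-signal limit, and was not tested.

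The glucosinolate transporters GTR1 and GTR2 differed by 0.23 (SE 0.24; limma adjusted p = 0.848) and 0.061 (SE 0.27; limma adjusted p = 0.966). GTR1, at 1013 to 1634, was lowest on Col-0 replicate 3 and sid2.2 replicate 2. It had an r of 0.79 with BCAT4 and 0.83 with AT2G31790, above 89.2% and 93.0% of probe sets. GTR2 had an r of -0.017 with BCAT4. Of 18 breakdown genes only BGLU28, a thioglucosidase that rises under sulfate deficiency, had a named probe set. Its lowest signal, 1256, was on Col-0 replicate 2, where BCAT4 was highest, and its highest signals, 13807 and 14190.5, were on Col-0 replicate 3 and sid2.2 replicate 2. Its r with BCAT4 was -0.88 over the 6 arrays, and 3.41% of probe sets had a lower one. BGLU28 differed between genotypes by 1.11 (limma adjusted p = 0.775). Without sid2.2 replicate 2 and Col-0 replicate 3 it differed by 1.65 (limma adjusted p = 0.118).

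In sulfate assimilation, which supplies the sulfate donor and reduced sulfur, the ATP sulfurylase APS4 had its highest signal, 481, on Col-0 replicate 2 and its lowest, 69.1, on Col-0 replicate 3. It had an r of 0.66 with BCAT4, above 81.3% of probe sets. APS3, the other ATP sulfurylase measured, and SIR, the sulfite reductase, had an r of -0.26 and 0.13. In methionine metabolism MGL, the methionine gamma-lyase that degrades methionine, was higher on all sid2.2 arrays, at 1231, 1694 and 1589 against 333, 443 and 1130. Its difference of 1.44 (SE 0.42; limma adjusted p = 0.503) did not pass. Without sid2.2 replicate 2 and Col-0 replicate 3 it was 1.86 (limma adjusted p = 0.00733). These 2 arrays were picked from correlations in these data, and Col-0 replicate 3 held the highest Col-0 signal of MGL. In that fit 1.72% of all probe sets were called, so this p-value is not independent support for a difference. MMT, which methylates methionine, and CBL, an enzyme of methionine synthesis, differed by 0.070 and 0.12 (limma adjusted p = 0.958 and 0.926).

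**Figure D4:**
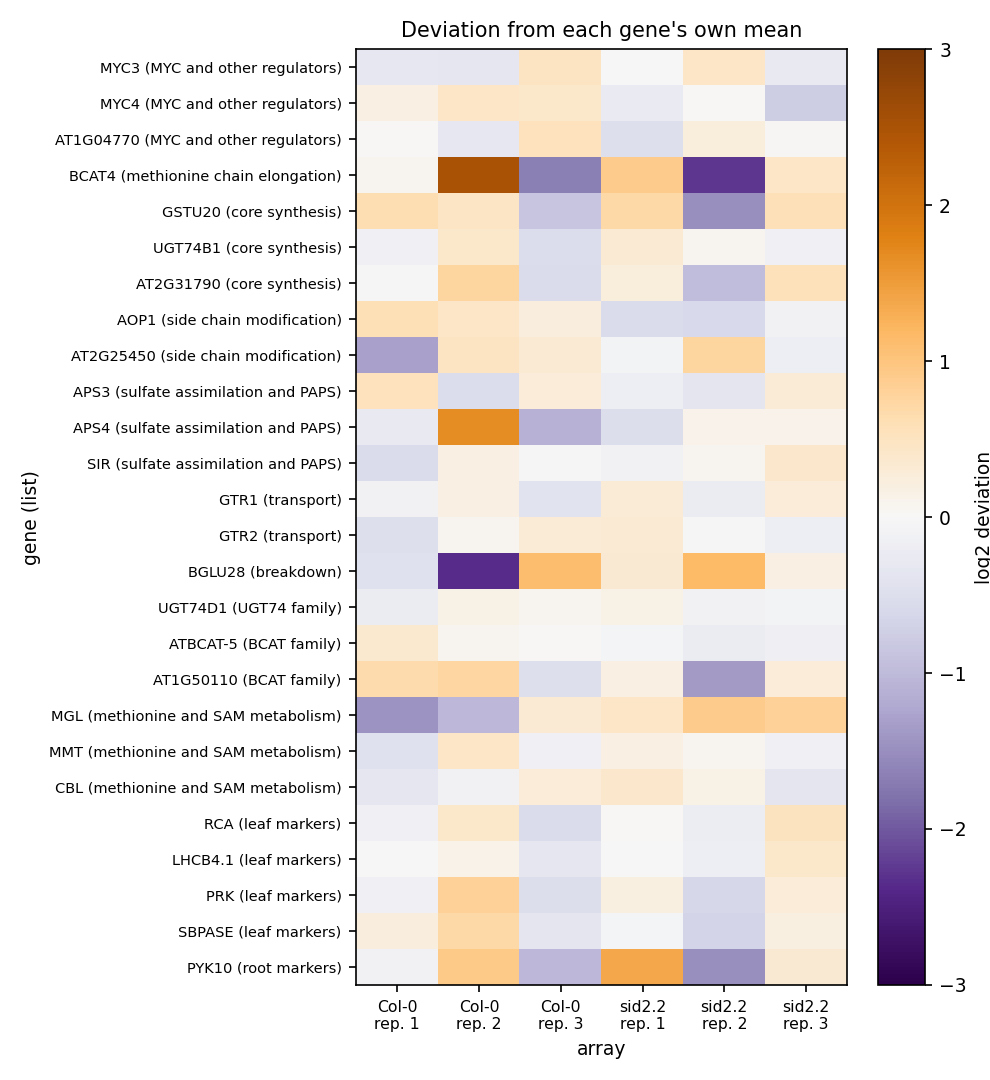
Log2 deviation of 26 tested genes (rows, with their list) from their own mean on each of the 6 arrays (columns, rep. for replicate), orange for above and purple for below the mean. BCAT4 spans the widest range, from 2.50 on Col-0 replicate 2 to -2.26 on sid2.2 replicate 2. Like BCAT4, AT2G31790, GSTU20, GTR1, AT1G50110, the root marker PYK10 and the leaf genes are lowest on Col-0 replicate 3 and sid2.2 replicate 2. BGLU28 is highest on those 2 arrays.

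Relatives of the 3 genes in sequence family did not all share their profiles. UGT74D1, a glucosyltransferase of the same family, is separated from AT2G31790 by 3 protein-coding genes on chromosome 2 in the TAIR10.1 gene order. Its signals stayed between 506 and 657, a 1.30-fold range against 3.32-fold for AT2G31790, and the r of the pair was 0.35. UGT74F1 was between 2.69 and 4.11 and was not tested. Of the aminotransferase list, ATBCAT-5 ranged over 1.50-fold with an r of 0.34 with BCAT4. ATBCAT-5 was lower on all sid2.2 arrays, and the genotypes were apart for 12.0% of all probe sets tested. AT1G50110 ranged over 4.31-fold, with 175, 183 and 79.0 on the Col-0 arrays against 124, 42.6 and 133 on the mutant arrays, and had an r of 0.87 with BCAT4. Both differed between genotypes without passing, by -0.30 (SE 0.21; limma adjusted p = 0.791) and -0.61 (SE 0.51; limma adjusted p = 0.818).

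The profile of BCAT4 was shared by genes outside the pathway. The 5 named genes most like BCAT4 over the 6 arrays were AT1G12800 (r = 0.993), AT5G37010 (0.993), ALDH11A3 (0.992), AT5G62710 (0.992) and AT1G47400 (0.990). ALDH11A3 encodes a glyceraldehyde-3-phosphate dehydrogenase that makes NADPH, and its signals ran from 4092 on sid2.2 replicate 2 to 7595 on Col-0 replicate 2. These 5 genes ranged over 0.89 to 2.73 log2 units, less than the 4.76 of BCAT4. With AT2G31790 the highest values were those of AT3G54390 (r = 0.991), AT3G63510 (0.986), AT1G74470 (0.982), AT3G10720 (0.982) and AT1G66250 (0.980). AT1G74470, annotated as a geranylgeranyl reductase, an enzyme of chlorophyll and tocopherol synthesis, ran from 6742 to 11105. With UGT74B1 they were AT2G43180 (r = 0.982), AT4G36150 (0.975), AT5G10820 (0.959), AT5G24210 (0.952) and CAF1 (0.952), a chloroplast splicing factor. No gene appeared in more than 1 of these 3 groups of 5, which head the 7387 named probe sets tested and carry no test.

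The leaf markers and the root marker PYK10 had correlations with BCAT4 of unequal size. PRK, the phosphoribulokinase of the Calvin cycle, had an r of 0.98 with BCAT4, above 99.8% of all probe sets, and 0.96 with AT2G31790. SBPASE, of the same cycle, had 0.93 and 0.92, its r with BCAT4 being above 98.4% of probe sets. RCA, which activates Rubisco, had 0.76 and 0.83, and LHCB4.1, of the light-harvesting antenna, 0.64 and 0.79. Their r with BCAT4 lay above 87.2% and 80.6% of probe sets, where that of UGT74B1 lay above 82.2%. All 4 were lowest on Col-0 replicate 3 and sid2.2 replicate 2, with a range of 1.71-fold to 2.68-fold each. PYK10, the root beta-glucosidase, had an r of 0.91 with BCAT4, above 97.2% of probe sets, and on sid2.2 replicate 2 its signal of 32.0 was near the background level of 27.9. The part of tissue make-up in the profile of the 3 genes was not tested.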

How the data were processed

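The deposited values are linear signal intensities of 22810 probe sets, which the authors made with MAS5, as the submitters' processing notes name it with no version, from 200 ng of total RNA per pool. The values were checked: with the top and bottom 2% left out, each array had a mean of 500 (rounded), so a change in total signal would have been scaled away. Arrays have no counting depth, and 3 per genotype limit the precision.

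Names came from the platform annotation and a RefSeq gene table (TAIR10.1). Intensities were log2 transformed. The 64 controls and the dimmest 40% of probe sets, by mean log2, were dropped, which kept 13647, all 3 genes included, and p-values were adjusted over these (Benjamini-Hochberg). The genotype test was two-sided limma 3.58.1 (R 4.3.3; lmFit, eBayes with trend). Ratios and correlations were tested by exact permutation over arrays (Python 3.11.15). Each array is 1 pool, so p-values measure the spread between pools. Alternatives were other scalings, filters, an offset of 16, no trend, the culture block and arrays left out.

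The 3 genes and the lists were chosen with earlier results of these data known. Besides the 3 genes, the text names every tested gene of lists with up to 6 of them and, for each of the 3, the 5 named genes with the highest Pearson r; where a gene had several probe sets the brightest stood for it.

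Same-numbered arrays share a culture per the labels, which pairs them. Their deviations from the genotype means correlated at -0.035, -0.53 and -0.55 in cultures 1, 2 and 3; within a genotype the 3 deviations are bound to cancel, so these values are not independent. The limma step was tested on simulated data of 13647 independent probe sets (sid2.2 against Col-0, 20 data sets): it called 23.9% of those changed 2-fold and 93.5% of those changed 4-fold, and 6.45% of calls were false. The simulated arrays had no shared array effects and the changed probe sets were drawn at random, so these rates need not hold for the real arrays. They do not describe BCAT4, whose residual SD of 1.91 was above that of 99.9% of probe sets.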

Additional observations from a re-analysis of the deposited data

How the results depend on the processing

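The 3 genes were not called under any of their 17 alternatives, with limma adjusted p-values of 0.258 to 0.999 for BCAT4, 0.357 to 0.999 for AT2G31790 and 0.861 to 0.999 for UGT74B1. The replicate block by culture left the differences at -0.61, -0.11 and 0.16 (limma adjusted p = 0.998 for each) and changed no call of these genes. Directions turned only where arrays were left out; the cause was not tested. With 1 array left out at a time, the difference ran from -1.60 to 0.48 for BCAT4, from -0.42 to 0.34 for AT2G31790 and from -0.063 to 0.41 for UGT74B1. With 1 culture left out BCAT4 lay between -1.97 and 1.46, AT2G31790 between -0.72 and 0.69 and UGT74B1 between 0.0085 and 0.42. Without sid2.2 replicate 2 and Col-0 replicate 3, the sign of both glucosyl transfer genes turned: AT2G31790 was at 0.036 and UGT74B1 at -0.049.

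The count of called probe sets, 3, became 1 with quantile normalization, 0 without the low-signal filter, 5 with the offset of 16, 1 without the trend and 0 with the replicate block. It ran from 0 to 302 with 1 array left out and from 0 to 728 with 1 culture left out, and was 235 without sid2.2 replicate 2 and Col-0 replicate 3. The cause was not tested.

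The ratio of BCAT4 to the glucosyl transfer genes, -0.64, ran from -1.36 to 0.16 with 1 array left out and from -1.63 to 0.90 with 1 culture left out. The ratio of AT2G31790 to UGT74B1, -0.27, ran from -0.68 to 0.17 and from -0.77 to 0.27, and was 0.084 without sid2.2 replicate 2 and Col-0 replicate 3. The exact permutation p was 0.1 to 1 in these.

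The correlation of BCAT4 with AT2G31790 was 0.89 without the 2 arrays farthest from the BCAT4 median (exact permutation p = 0.125), and, in alternatives chosen after seeing the data, 0.78 (exact permutation adjusted p = 0.375) without sid2.2 replicate 2 and Col-0 replicate 3 and 0.95 (exact permutation adjusted p = 0.075) without Col-0 replicate 2. The latter choice took BCAT4 with UGT74B1 from 0.67 to 0.45 and AT2G31790 with UGT74B1 from 0.50 to 0.25. Leaving out sid2.2 replicate 2 and Col-0 replicate 3 instead took BCAT4 with UGT74B1 to 0.85. Fewer arrays raise the smallest p that permutations can give. Low signal limits BCAT4 on its 2 dimmest arrays.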
